A study of Mus musculus with 12 samples.

Results

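Vitamin E transfer and lipid uptake genes are here 6 genes, Ttpa, Scarb1, Pltp, Lpl, Cd36 and Abca1, read through every probe set that the array's annotation assigns to them. They hold 14 of the 20380 probe sets with 1 annotated gene, and 6 of the 12394 genes measured. Ttpa was picked because its signal was higher after ventilation in both genotypes, so its ventilation values below are a description with no test. The other 5 genes were not picked on a stated value. Earlier results of these data were known when they were chosen, so that choice may affect their p-values.

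The lungs came from CD-1/ICR mice, either lacking the transcription factor Nrf2 (Nrf2-/-, called knockout or KO) or wild type (Nrf2+/+, WT). Mice of each genotype breathed under mechanical ventilation at a high tidal volume (HVT) of 30 ml/kg for 2 h, or breathed spontaneously (SpV, called at rest) for 2 h as controls. Total RNA of each lung sample was hybridised to an Affymetrix Murine Genome 430A array, with 3 arrays in each of the groups KO HVT, KO SpV, WT HVT and WT SpV. All arrays carried left lung lobe except array 1 of WT SpV, which carried whole lung. The labels do not say that the 3 samples of a group came from separate animals, so p-values speak only of how these particular samples spread, and part of that spread may be technical. Neither the age of the mice nor the form of the Nrf2 deletion is given in the sources used here.

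Vitamin E is a fat-soluble antioxidant that travels in lipoproteins and reaches cells by the routes that also carry cholesterol and fatty acids. TTPA, the alpha-tocopherol transfer protein, binds vitamin E inside cells and is best known from liver, where it loads the vitamin for export. SCARB1 (SR-BI) takes lipid and vitamin E from HDL, CD36 takes up fatty acids and oxidised lipoproteins, lipoprotein lipase (LPL) splits the triglycerides of circulating particles, PLTP moves phospholipid and vitamin E between particles, and ABCA1 exports cholesterol and vitamin E to apolipoprotein A-I. In lung, type II cells use lipid taken up from HDL for surfactant, and surfactant lipid is exposed to oxidants.

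RefSeq promoters were at hand for 3 of the 6 genes, namely Pltp, Cd36 and Abca1. The 250 bases before the start are shown for Pltp and Abca1 because their signals were lower on every knockout array than on every wild-type array. Both genes lie on the minus strand and the sequences run 5′ to 3′ on that strand, in build GRCm38.p6, at chr2:164857709-164857958 for Pltp and at chr4:53159896-53160145 for Abca1. Capitals mark matches to one of the searched motifs.
Pltp: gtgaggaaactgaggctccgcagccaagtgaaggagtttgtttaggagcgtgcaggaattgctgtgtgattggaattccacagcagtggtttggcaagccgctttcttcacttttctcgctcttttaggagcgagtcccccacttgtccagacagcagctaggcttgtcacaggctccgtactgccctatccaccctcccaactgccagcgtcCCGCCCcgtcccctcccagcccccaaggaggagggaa
Abca1: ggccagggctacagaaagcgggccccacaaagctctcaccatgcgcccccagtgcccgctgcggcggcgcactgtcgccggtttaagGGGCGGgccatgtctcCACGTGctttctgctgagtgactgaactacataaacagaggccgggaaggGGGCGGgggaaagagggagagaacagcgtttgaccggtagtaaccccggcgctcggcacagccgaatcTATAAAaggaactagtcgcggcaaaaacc
Each motif was searched on both strands of the 250 bases before 32851 RefSeq starts. The core of the antioxidant response element, the DNA motif that Nrf2 binds with a small MAF partner, was searched as TGACNNNGC. It was in 10.2% of promoters and in neither of these windows nor that of Cd36. The AP-1 site TGANTCA can overlap that core, stood in 6.75% of promoters and had no match in these 3 windows. The LXR direct repeat (DR4, 2 half-sites in tandem) was searched only in an exact form, with identical half-sites and no mismatch. That exact form was in 0.0152% of promoters and in none of the 3. Repeats with variant half-sites were not searched, so the search cannot say whether these windows hold such a DR4. The GC box GGGCGG, present in 32.7% of promoters, had 1 match in Pltp on the opposite strand, 2 in Abca1 and 2 in Cd36. The E-box CACGTG, in 6.02% of promoters, and the TATA box TATAAA, in 12.4%, each had 1 match in Abca1 and none in the other windows. The TATA box of Abca1 lay 29 to 24 bases before the start.

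Signals below are normalised array intensities, comparable between arrays for 1 probe set but not between probe sets. Differences are on the scale of log2(signal + 16), given with their standard error, and a probe set was called where the limma p, adjusted by Benjamini-Hochberg over all 14578 probe sets tested, was under 0.05. Of the 14 probe sets 13 were tested, and 1 of Abca1 was too dim. Array 1 of KO SpV stood apart from the other 11: its trimmed mean before scaling was 73.4 against 181 to 468, and its actin 3′ to 5′ signal ratio, a sign of RNA quality, was 8.76 against 1.39 to 3.10. The ventilated groups also differed without overlap in the actin ratio, which was 3.10, 2.21 and 3.02 in KO HVT against 1.99, 1.58 and 1.53 in WT HVT, and in the trimmed mean before scaling, which was 181 to 245 in KO HVT against 278 to 438 in WT HVT. Fitted with that ratio as a covariate, the genotype difference after ventilation was -0.55 ± 0.11 for Pltp (adjusted p = 0.0257), -0.70 ± 0.22 for Scarb1 (adjusted p = 0.161), 1.13 ± 0.32 for Lpl (adjusted p = 0.119) and -0.30 ± 0.19 for Abca1 (adjusted p = 0.531). The slope of that covariate rests largely on array 1 of KO SpV, and the ventilated groups do not overlap in the ratio. Those fits therefore cannot separate genotype from RNA quality. The deleted gene itself, Nfe2l2, read 36.3 to 61.5 on the 6 knockout arrays and 2152 to 3308 on the 6 wild-type arrays. The lists of lung cell markers had no gene at 0 on any array, and the type II cell markers summed to between 70337 and 101850 on every array. Single type II markers could vary more, as Napsa did at 461 to 3974. Of the 8 tested, 2 were higher and 6 lower in knockout on average, with 0 called, where 3.18% of all probe sets were.

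**Figure D1:**
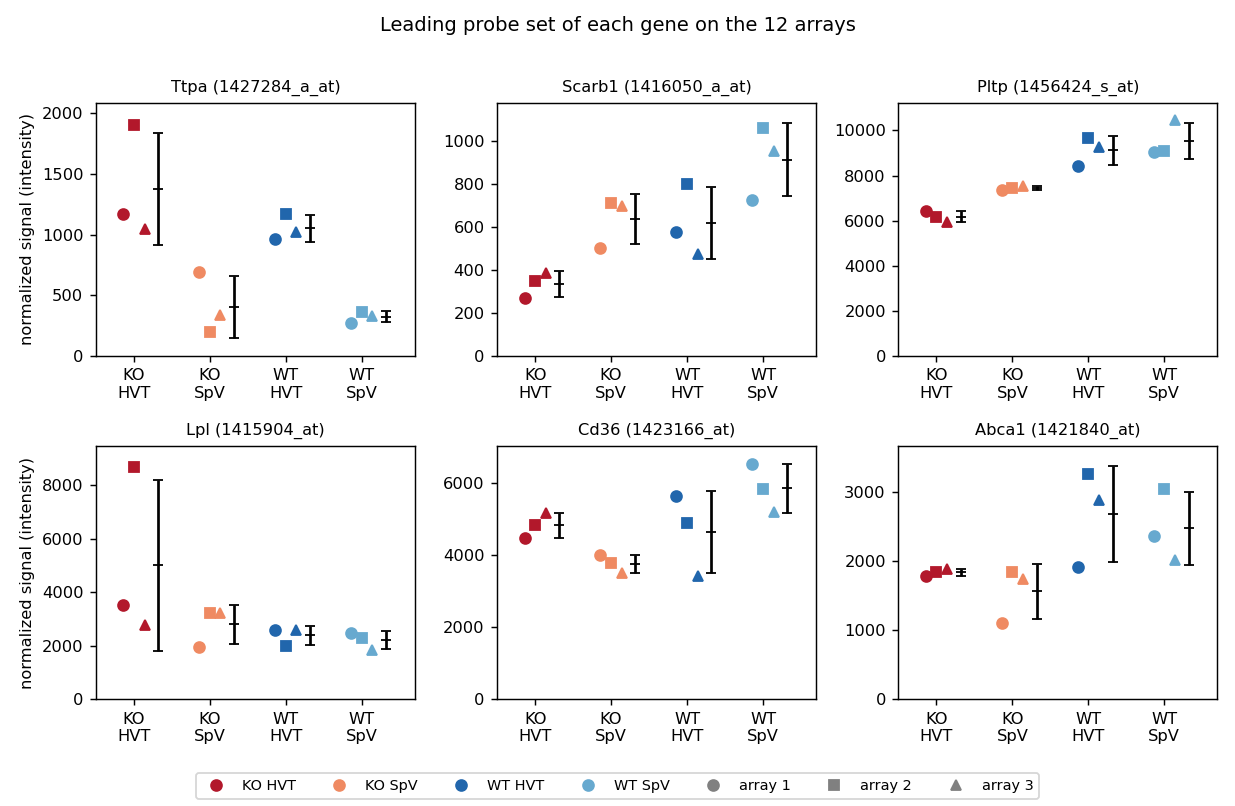
Normalised signal (y axis, from 0) of the leading probe set of each gene on the 12 arrays by group, with the mean ± SD of the 3 arrays beside the points and the marker shape giving the array number. Ttpa was at 960 or more on all HVT arrays and at 688 or less on all SpV arrays, and Pltp and Abca1 were lower on every KO array than on every WT array.

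Ttpa had the largest log2 difference between groups among the 6 leading probe sets, and it was seen between breathing states. Its probe set read 1173, 1903 and 1050 on the KO HVT arrays, against 688, 193 and 333 on the KO SpV arrays. In wild type it read 960, 1174 and 1024 on the HVT arrays, against 272, 364 and 326 on the SpV arrays. Every ventilated lung was thus above every spontaneously breathing lung of either genotype. The mean of KO HVT was 1375 ± 461 (SD, n = 3), that of KO SpV 405 ± 255, that of WT HVT 1052 ± 110 and that of WT SpV 321 ± 46.4. In log2 terms ventilation went with a difference of 1.85 ± 0.36 in knockout (3.62-fold) and 1.67 ± 0.36 in wild type (3.18-fold), values that chose the gene. Without array 1 of KO SpV, the highest of the SpV arrays, the knockout difference was 2.33 ± 0.27, or 5.02-fold. That was the highest value of the 12 fits that each left out 1 array, and the lowest was 1.43, without array 2 of KO SpV. Without array 2 of KO HVT, which had the highest Ttpa reading, the knockout difference was 1.60 ± 0.38, or 3.04-fold. That array also held the highest fat marker sums, given below. The files' own unscaled intensities also kept the breathing states apart, at 441, 921 and 368 for KO HVT against 98.6, 170 and 296 for KO SpV, and at 531, 1060 and 914 for WT HVT against 194, 227 and 280 for WT SpV.

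Genotype made no detectable difference to Ttpa. Knockout minus wild type was 0.34 ± 0.36 after ventilation (adjusted p = 0.731) and 0.15 ± 0.36 at rest (adjusted p = 0.894), and the rest value turned to -0.31 without array 1 of KO SpV. The difference between the ventilation effects, knockout minus wild type, was 0.18 ± 0.50, with a 95% interval of -0.91 to 1.28 (adjusted p = 0.9996). That interval is wide enough to hold differences of more than a doubling in the knockout's favour, so it does not show that the genotypes act alike. Without array 1 of KO SpV it was 0.65 ± 0.36, with an adjusted p of 0.420.

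Hepatocyte markers, a check for the cell type best known for Ttpa, were low. Of 11 listed markers 9 were annotated and 3 tested. Their summed signal was 472 to 918 in KO HVT, 463 to 794 in KO SpV, 474 to 789 in WT HVT and 319 to 404 in WT SpV. Hpx, the heme carrier hemopexin, read 235, 498 and 446 in KO HVT, against 151, 230 and 325 in KO SpV. In wild type Hpx read 245, 190 and 434 with HVT, against 108, 94.5 and 89.2 with SpV, with no overlap. Its ventilation difference averaged over genotypes was 1.03 ± 0.25 (adjusted p = 0.116), or 0.90 with an adjusted p of 0.0410 without array 1 of KO SpV. Albumin read 87.6 to 239 over the 12 arrays, the fibrinogen chain Fgb 1.2 to 5.4 and the secreted liver protein Ahsg 2.9 to 8.4. The sum was higher in every WT HVT array than in every WT SpV array but overlapped in knockout. Of the 3 tested markers only Hpx kept the WT groups apart. In wild type albumin read 131, 108 and 131 with HVT, against 87.6, 105 and 112 with SpV. Tat read 27.0, 68.7 and 77.6 with HVT, against 89.9, 102 and 67.3 with SpV. The part of liver markers in the Ttpa values was not tested.

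The genes whose leading probe set followed that of Ttpa most closely over the 12 arrays were Sra1, with Pearson r = 0.92, Kcnk1, Mterf3, Rbp4 and Elp5, all with r from 0.90 to 0.91. These 12 points share their arrays and scaling, and r is a description. Kcnk1, a potassium channel, read 917, 1291 and 1171 in KO HVT, against 736, 494 and 500 in KO SpV. In wild type Kcnk1 read 1040, 789 and 1034 with HVT, against 630, 569 and 446 with SpV. Like Ttpa, Kcnk1, Sra1 and Elp5 kept all HVT arrays above all SpV arrays, as 0.611% of all probe sets did. These genes were chosen for their likeness to Ttpa, itself picked for its ventilation values, so this separation is partly built in. Kcnk1 had smaller log2 differences than Ttpa, 0.96 in knockout and 0.78 in wild type. Rbp4, the carrier of another fat-soluble vitamin, retinol, differed by 0.74 in knockout and 0.78 in wild type. For Rbp4 array 1 of KO SpV read 1669, where arrays 2 and 3 read 761 and 1014, below the KO HVT arrays at 1760 to 1917. Sra1, Mterf3 and Elp5 differed by 0.16 to 0.47.

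**Figure D2:**
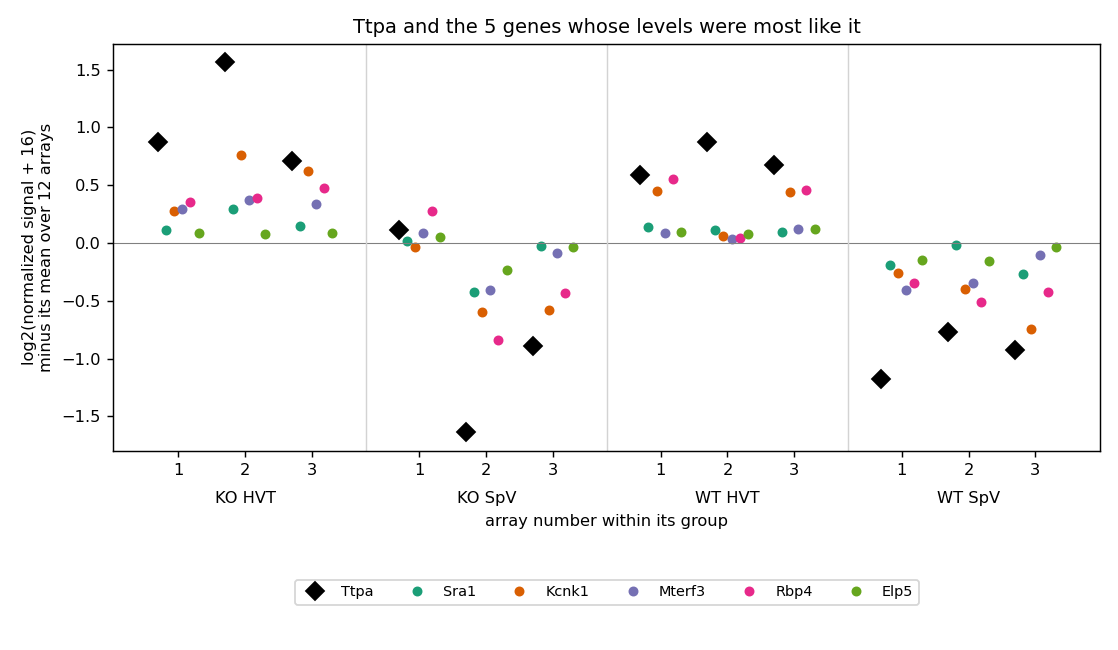
Log2(signal + 16) of Ttpa (black diamonds) and of the 5 genes most like it (circles), each minus its own mean over the 12 arrays (y axis), for each array of the 4 groups (x axis). All 6 genes are above their mean on the HVT arrays, by most for Ttpa, and array 1 of KO SpV lies closer to the HVT arrays than the other SpV arrays do.

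Scarb1, the HDL receptor, was lower in knockout lung and had its lowest values in ventilated knockouts. Its leading probe set read 271, 346 and 386 in KO HVT, against 504, 710 and 699 in KO SpV. In wild type it read 575, 802 and 476 with HVT, against 726, 1060 and 953 with SpV. KO HVT lay below all other groups, and the WT groups overlapped each other. Averaged over both breathing states, Scarb1 fell by 0.67 ± 0.16 on the log2 scale in knockout (1.59-fold, adjusted p = 0.0453). In that average 2 of the 13 probe sets were called, both lower, where 3.18% of all probe sets tested were called and 1.84% were called lower. Without array 1 of KO SpV it was again 2 of 13, where 5.5% of all were called. The Scarb1 call is a narrow one: it was kept in 3 of 12 fits that each left out 1 array (adjusted p 0.0419 to 0.120), those without array 1 or 2 of KO SpV or array 3 of WT HVT. It was lost with median scaling (adjusted p = 0.0521), with no filter (0.0604) and with no intensity trend (0.0608).

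Within each breathing state the Scarb1 genotype difference was -0.84 ± 0.23 after ventilation (adjusted p = 0.159) and -0.51 ± 0.23 at rest (adjusted p = 0.384), with KO below WT on every array in both. The ventilation difference was -0.90 ± 0.23 in knockout (adjusted p = 0.233), where the groups did not overlap, and -0.57 ± 0.23 in wild type (adjusted p = 0.594), where they did. The difference between those effects, -0.33 ± 0.33, did not pass (adjusted p = 0.9996). Leaving out array 1 of KO SpV brought several of these past the threshold. The ventilation difference in knockout was then -1.06 ± 0.23 (adjusted p = 0.0232), and the genotype difference after ventilation was -0.84 ± 0.21 (adjusted p = 0.0398). With that array left out, the knockout ventilation contrast called 2 of 12 probe sets, both of Scarb1, where 6.35% of all were called, and the genotype contrast after ventilation called 3 of 13, where 4.76% of all were called. Averaged over genotypes, ventilation then called 2 of 12, both of Scarb1, where 6.06% of all were called. A second Scarb1 probe set, 1455820_x_at, read 137, 154 and 141 in KO HVT, against 225, 407 and 250 in WT HVT, and was correlated with the first at r = 0.93. The third, 1437378_x_at, had r = 0.67 with the first and a genotype average of -0.55 ± 0.20 (adjusted p = 0.163). The suffix of both marks probes that can bind related transcripts.

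Pltp had the smallest standard error of the 6 leading probe sets and the smallest adjusted p for genotype after ventilation and on average. Its leading probe set read 6414, 6171 and 5914 in KO HVT, against 7351, 7423 and 7529 in KO SpV. In wild type it read 8419, 9652 and 9262 with HVT, against 9053, 9084 and 10474 with SpV. All 6 knockout arrays were below all 6 wild-type arrays, as for 1.36% of all probe sets. After normalisation no Pltp signal exceeded 39.9% of the highest signal of its array. That share was larger before scaling, where Pltp read 7535.1 on array 3 of WT SpV and the highest signal of that array was 13016.3. Averaged over breathing states Pltp fell by 0.46 ± 0.07 on the log2 scale in knockout (1.37-fold, adjusted p = 0.00734), a call kept in all 12 fits that left out 1 array. After ventilation it fell by 0.56 ± 0.10 (1.47-fold, adjusted p = 0.0359) and was the 1 called probe set of 13, where 0.562% of all were called and 0.336% were called lower. At rest the difference was -0.36 ± 0.10 (adjusted p = 0.178), with groups that did not overlap.

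The size of the Pltp calls depended on the scaling. With trimmed-mean scaling alone the average was -0.30 ± 0.10 (adjusted p = 0.111) and with median scaling -0.35 ± 0.09 (adjusted p = 0.0551). The call after ventilation was kept in 2 of 12 fits that left out 1 array, those without array 1 of KO SpV or array 3 of WT SpV, and its adjusted p was 0.0501 to 0.179 without any other array. The ventilation difference of Pltp was -0.27 ± 0.10 in knockout (adjusted p = 0.385) with no overlap, and -0.06 ± 0.10 in wild type (adjusted p = 0.964), where it turned to 0.00402 without array 3 of WT SpV. The difference of these, -0.21 ± 0.15, did not pass (adjusted p = 0.9996).

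The second Pltp probe set, 1417963_at, followed the first (r = 0.84) with wider spread. It read 1684, 1184 and 809 in KO HVT, against 1982, 3328 and 1894 in WT HVT. At rest it read 1625, 2333 and 2278 in KO SpV, against 2566, 4333 and 3328 in WT SpV. Knockout was below wild type within each breathing state, and the average difference of -0.83 ± 0.21 lay at the threshold (adjusted p = 0.0506). Pltp and the deleted gene both lie on chromosome 2 in GRCm38.p6, Pltp at 164839518 to 164857708 and Nfe2l2 at 75675513 to 75704663.

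Most endothelial markers were, like Scarb1 and Pltp, lower in knockout on average. All 12 listed markers were tested and none was at 0. Their summed signal was 12152 to 14143 in KO HVT, 11440 to 27874 in KO SpV, 22351 to 36823 in WT HVT and 31314 to 39762 in WT SpV. In the genotype average 6 of the 12 were called lower, where 1.84% of all probe sets were, and 9 were without array 1 of KO SpV. The list's median log2 difference was -0.99, against 0.01 for all genes. Cdh5, the cadherin of endothelial junctions, fell by 1.96 ± 0.37 on the log2 scale in knockout (adjusted p = 0.0167). In that average 11 of the 12 markers were lower and 1, Kdr, was higher, at 0.08 ± 0.12 (adjusted p = 0.750). On the KO SpV arrays the endothelial sum was 11440, 27874 and 22378, while Scarb1 read 504, 710 and 699 and Pltp 7351, 7423 and 7529. The type I cell markers, of which 6 of 8 were tested, summed to 14679 to 19793 in KO HVT, 14826 to 36041 in KO SpV, 27983 to 40118 in WT HVT and 33676 to 44142 in WT SpV. The actin ratio was 8.76, 1.39 and 1.52 on the KO SpV arrays, so the lowest endothelial sum was on the array with the highest ratio. It was 2.21 to 3.10 in KO HVT and 1.53 to 1.99 in WT HVT. In WT SpV it was 2.08 to 2.51, beside endothelial sums of 31314 to 39762. The part of RNA quality in these marker sums was not tested. In bulk lung fewer cells of a type and less RNA per cell cannot be told apart, and the part of these cells in the Scarb1 and Pltp differences was not tested.

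**Figure D3:**
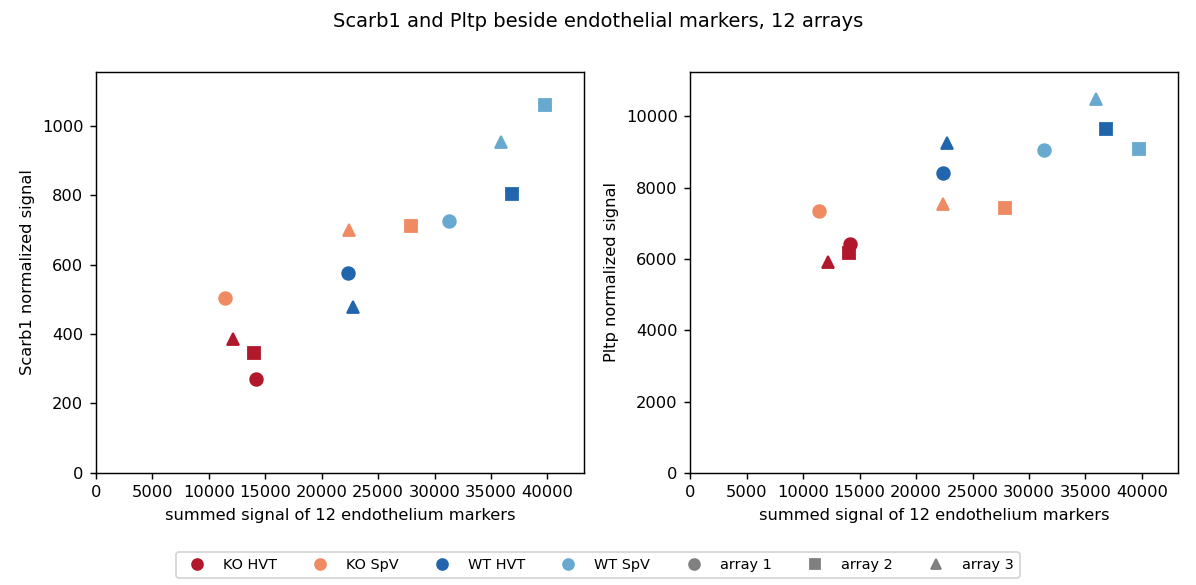
Normalised signal of Scarb1 (left, y axis) and Pltp (right, y axis) against the summed signal of 12 endothelium markers (x axes), 1 point per array with colour for the group. The KO HVT arrays hold the lowest Scarb1 and Pltp signals at marker sums of 12152 to 14143, and array 1 of KO SpV has the lowest marker sum.

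Cd36, the fatty acid receptor, read lower in knockout lung at rest on its leading probe set, and overlapped with wild type after ventilation. That probe set read 4000, 3769 and 3496 in KO SpV, against 6525, 5829 and 5182 in WT SpV, with no overlap. After ventilation it read 4458, 4839 and 5152 in KO HVT, against 5619, 4872 and 3400 in WT HVT, which overlap. The genotype difference was -0.63 ± 0.17 at rest (adjusted p = 0.140) and 0.08 ± 0.17 after ventilation (adjusted p = 0.876), so neither passed. With array weights the rest difference passed (-0.67, adjusted p = 0.0149), where 1318 of all 14578 did. It also passed with the actin covariate (-0.65, adjusted p = 0.0495), where 514 did. It passed in none of 12 fits that left out 1 array. The probe set 1450883_a_at also had no overlap at rest, at 2644, 4514 and 4206 in KO SpV against 5258, 5767 and 5050 in WT SpV. For 1450884_at the groups overlapped. At rest none of the 13 probe sets was called by limma, where 0.446% of all were, though 6 had an unadjusted p under 0.05, as had 12.9% of all.

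The ventilation difference of Cd36 was 0.36 ± 0.17 in knockout (adjusted p = 0.473) and -0.36 ± 0.17 in wild type (adjusted p = 0.700). The difference between the 2, 0.72 ± 0.24, had a 95% interval of 0.19 to 1.24 and an unadjusted p of 0.0114, but an adjusted p of 0.988. It was the 1 probe set of 13 with an unadjusted p under 0.05 in that comparison, in which limma called none of all probe sets (0%) and 733 of the 14578 had such a p. The other Cd36 probe sets gave smaller values, 0.39 ± 0.27 for 1450883_a_at and 0.15 ± 0.30 for 1450884_at, and these were 0.15 and 0.02 without array 1 of KO SpV. The 3 probe sets were correlated with each other at r from 0.55 to 0.72.

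Lpl, the triglyceride lipase, read higher in ventilated knockout lung, with 1 array far above the rest. Its leading probe set read 3534, 8663 and 2785 in KO HVT, against 2576, 1978 and 2600 in WT HVT. At rest it read 1960, 3201 and 3234 in KO SpV, against 2484, 2273 and 1840 in WT SpV. After ventilation every knockout array was above every wild-type array, while at rest the genotypes overlapped. The genotype difference was 0.89 ± 0.34 after ventilation (adjusted p = 0.318), 0.32 ± 0.34 at rest (adjusted p = 0.741; 0.56 ± 0.34 without array 1 of KO SpV) and 0.61 ± 0.24 on average (adjusted p = 0.193). Without array 2 of KO HVT it was 0.40 ± 0.24 after ventilation (adjusted p = 0.603). The second probe set, 1431056_a_at, read 577, 1262 and 532 in KO HVT, against 299, 400 and 409 in WT HVT, and had r = 0.84 with the first. Its difference after ventilation was 0.97 ± 0.38 (adjusted p = 0.327), and 0.58 ± 0.37 without array 2 of KO HVT (adjusted p = 0.614).

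The sums of the adipocyte and brown fat marker lists were far higher on the array where Lpl was highest than on the other 11. The heart marker sum of that array, 66375, was near the 63314 of array 1 of KO HVT. Of 10 adipocyte markers 8 were annotated and 4 tested, and their sum was 1403 to 9180 in KO HVT, 1262 to 3558 in KO SpV, 1646 to 1745 in WT HVT and 1606 to 2253 in WT SpV. Array 2 of KO HVT held the 9180, with the fat hormone Adipoq at 1144 against 22.5 to 433 on the other 11 arrays, and the fatty acid carrier Fabp4 at 6471 against 244 to 1954. The brown fat marker sum, over 6 genes, was 6948 on that array and 1166 to 2537 on the others. Most of the 6948 came from Cox8b at 3568.5 and Cox7a1 at 2909.8, while Ucp1, the defining brown fat protein, was at 4.4 to 32.5 on all 12. Cidea, Dio2 and Elovl3, the rest of that list, read 257, 150 and 57.3 on array 2 of KO HVT. Each of them was higher on at least 1 of the other 11 arrays, so the brown fat sum stood out through Cox8b and Cox7a1 alone. All 10 cardiac muscle markers were tested, and their sum was 55792 to 66375 in KO HVT, 45493 to 55738 in KO SpV, 26887 to 42301 in WT HVT and 27646 to 38605 in WT SpV. In the genotype average 9 of these 10 were called higher in knockout, where 1.34% of all probe sets were. The genes most like Lpl over the 12 arrays were Pabpc4 (r = 0.95) and the muscle gene Txlnb (r = 0.93). Next was the myosin light chain gene Myl1 (r = 0.93), at 9052.5 on array 2 of KO HVT and 72.2 to 721 on the others. The part of fat, heart or other muscle tissue in the Lpl values was not tested.

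**Figure D4:**
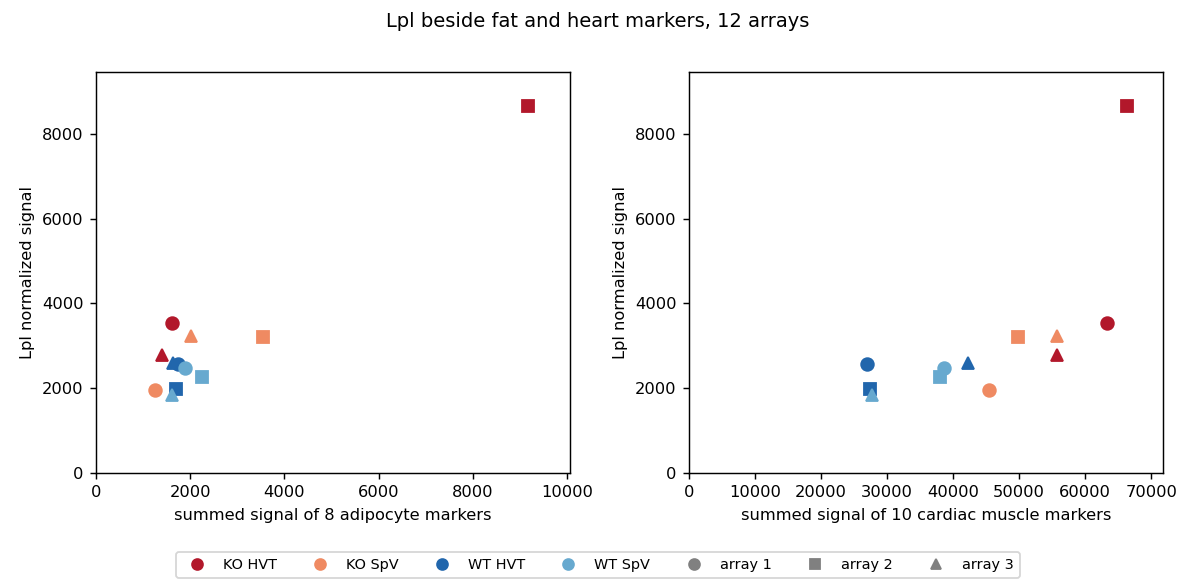
Normalised signal of Lpl (y axes) against the summed signal of 8 adipocyte markers (left, x axis) and of 10 cardiac muscle markers (right, x axis), 1 point per array with colour for the group. Array 2 of KO HVT stands alone at an Lpl signal of 8663 and an adipocyte sum of 9180, and all 6 KO arrays have higher cardiac sums than the WT arrays.

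Abca1, the cholesterol exporter, read lower on every knockout array in both breathing states. Its leading probe set read 1784, 1834 and 1887 in KO HVT, against 1903, 3247 and 2877 in WT HVT. At rest it read 1104, 1840 and 1729 in KO SpV, against 2351, 3040 and 2009 in WT SpV. All 6 knockout arrays were below all 6 wild-type arrays, though by a small margin, and the average difference of -0.59 ± 0.17 did not pass (1.503-fold lower, adjusted p = 0.0761). It was -0.51 ± 0.24 after ventilation (adjusted p = 0.411) and -0.67 ± 0.24 at rest (adjusted p = 0.274), and the rest value was -0.44 ± 0.21 without array 1 of KO SpV. The ventilation difference of Abca1 was 0.27 ± 0.24 in knockout (adjusted p = 0.714), or 0.04 ± 0.21 without array 1 of KO SpV, and 0.10 ± 0.24 in wild type (adjusted p = 0.975). The dim probe set 1421839_at, at 38.0 to 188, had a genotype average of -0.54 ± 0.30 (adjusted p = 0.349), or -0.28 ± 0.23 without array 1 of KO SpV. The probe set 1450392_at, at 10.6 to 83.5, was not tested.

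Over the whole group, 10 of the 13 probe sets were lower in knockout on average, all but Ttpa and the pair for Lpl. These 10 are the tested probe sets of only Scarb1, Pltp, Cd36 and Abca1. Probe sets of 1 gene were correlated at r from 0.55 to 0.93, so the 13 are not separate members and counts of them overstate the number of genes. Their median log2 difference was -0.46, against -0.01 for all probe sets tested, and 9 of the 13 had an unadjusted p under 0.05, as had 19.9% of all. After ventilation 2 probe sets, both of Lpl, were higher without overlap where 11.3% of all probe sets were, and 5 were lower without overlap where 13.3% of all were. At rest 6 were lower without overlap, where 9.39% of all were, and none was higher, where 8.53% of all were. Averaged over breathing states, 2 were lower on all 6 knockout arrays and none was higher, where 1.36% of all were lower and 1.12% higher. With ventilation, and with Ttpa left out, limma called none of the other 12 probe sets in knockout, where it called 0% of all, or in wild type, where it called 0.0137%. Of those 12, 4 in knockout and 1 in wild type had an unadjusted p under 0.05, as had 11% and 7.32% of all probe sets in those comparisons. In knockout 1 was higher and 3 were lower without overlap, where 7.46% and 7.37% of all were. In wild type none of the 12 was apart in either direction, where 8.33% of all were higher and 8% lower without overlap. Averaged over genotypes limma also called none of the 12, where 0.00686% of all were called, with 4 at an unadjusted p under 0.05 beside 13% of all, and none kept the 6 HVT arrays apart from the 6 SpV arrays, where 0.611% of all did as higher and 0.425% as lower.

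**Figure D5:**
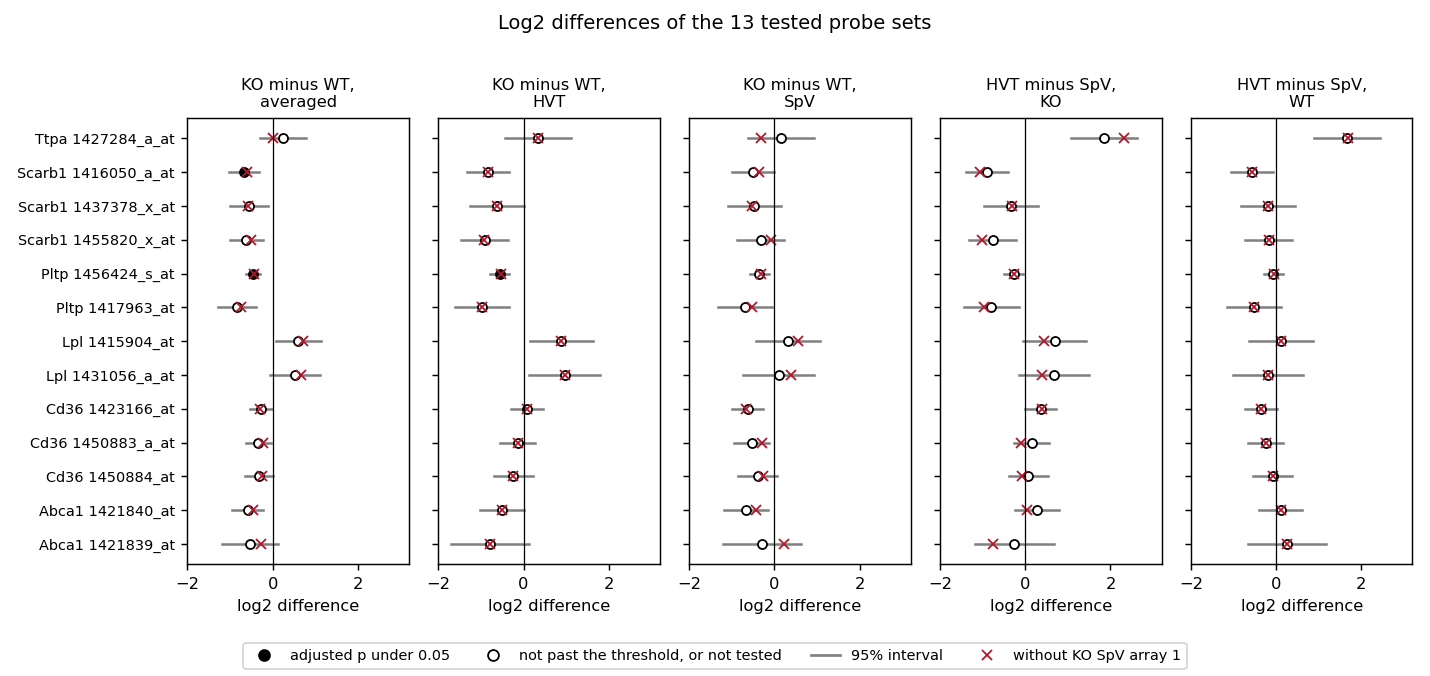
Log2 differences (x axes) of the 13 tested probe sets (rows) in 5 contrasts, with 95% intervals as lines, filled circles for an adjusted p under 0.05 and red crosses for the value without array 1 of KO SpV. Scarb1 and Pltp lie left of 0 in every genotype panel and Lpl right of it, and Ttpa lies right of 0 by 1.85 and 1.67 in the ventilation panels, where it was not tested.

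Of 14 listed genes of vitamin E handling other than Ttpa, 6 were tested, 5 of them higher and 1 lower in knockout on average, and limma called none. Without array 1 of KO SpV 3 were higher and 3 lower, and the median was 0.02 against 0.16 with it. Cyp4f13, of a family of enzymes that oxidise the side chains of vitamin E and fatty acids, read 201, 163 and 131 in KO HVT, against 108, 144 and 144 in WT HVT. At rest Cyp4f13 read 198, 192 and 152 in KO SpV, against 104, 116 and 105 in WT SpV, and its average difference was 0.47 ± 0.15 (adjusted p = 0.115). Sec14l1, from the same protein family as Ttpa, differed by -0.33 ± 0.16 with ventilation in knockout (adjusted p = 0.477).

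Of 21 listed genes of HDL remodelling and cholesterol efflux 14 were tested, 3 higher and 11 lower in knockout on average, with a median of -0.28 against 0.01 for all genes, or -0.17 without array 1 of KO SpV. The 2 calls of 14 were Pltp and Apoc1, an apolipoprotein of HDL and VLDL, where 3.18% of all probe sets were called. The list holds Pltp and Abca1, so it partly repeats the results above. Apoc1 read 143, 175 and 114 in KO HVT, against 228, 466 and 377 in WT HVT. At rest Apoc1 read 74.8, 390 and 246 in KO SpV, against 569, 600 and 497 in WT SpV. It was lower in knockout without overlap in each breathing state, and it fell by 1.30 ± 0.31 on average (adjusted p = 0.0405), or by 1.004 without array 1 of KO SpV (adjusted p = 0.0102). The alveolar macrophage markers, with 8 of 9 annotated and 5 tested, summed to 1415 to 2085 in KO HVT, 1305 to 6491 in KO SpV, 2585 to 3461 in WT HVT and 3308 to 3658 in WT SpV, and their part was not tested. Of 20 receptors, Scarb1 and Cd36 among them, 14 were tested, 5 higher and 9 lower in knockout on average. Scarb1 was the 1 called, where 3.18% of all probe sets were. Without array 1 of KO SpV 12 receptors were tested, 3 higher and 9 lower.

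Of 16 lipases and cofactors, Lpl among them, 10 were tested, 2 higher and 8 lower in knockout on average. Without array 1 of KO SpV 3 were higher and 7 lower, and limma called none in either fit. The inhibitor of fat-cell lipase G0s2 had its smallest p with ventilation averaged over genotypes, at -0.97 ± 0.15 (adjusted p = 0.0589). G0s2 read 151, 169 and 156 in KO HVT, against 365, 475 and 305 in KO SpV. In wild type G0s2 read 244, 358 and 199 with HVT, against 439, 448 and 488 with SpV. It was lower after ventilation without overlap in each genotype, and passed without array 1 of KO SpV (-0.99, adjusted p = 0.00869). Lipa, the lysosomal acid lipase, was at -0.95 ± 0.33 in the genotype average (adjusted p = 0.140), or -0.60 without array 1 of KO SpV.

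Of 26 genes of fatty acid binding, activation and storage 15 were tested, 10 higher and 5 lower in knockout on average. The 1 call of 15, where 3.18% of all probe sets were called, was Dgat1, the enzyme of the last step of triglyceride synthesis. Dgat1 rose by 0.57 ± 0.11 in knockout (adjusted p = 0.0163). Dgat1 read 848, 931 and 804 in KO HVT, against 769, 597 and 755 in WT HVT. At rest Dgat1 read 1132, 1051 and 1090 in KO SpV, against 548, 668 and 579 in WT SpV. The rest difference, 0.85 ± 0.15, also passed (adjusted p = 0.0337), and the difference after ventilation, 0.28 ± 0.15, did not (adjusted p = 0.472).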

How the data were processed

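Affymetrix 430A arrays measured total RNA of 12 mouse lung samples. Per the submitters' processing notes the deposited intensity of each probe set came from GCOS 1.4. The series' design text gives an average intensity of 500, but trimmed means differed between arrays. Each array was therefore scaled to a trimmed mean (2% off each end) of 500 and quantile normalised, and 16 was added before log2. Probe sets with 1 annotated gene and a signal of at least 100 on 3 arrays were kept (14578). Left out were 64 controls, 691 probe sets of several genes and 1555 of none. One limma 3.58.1 fit with an intensity trend (R 4.3.3) covered all 4 groups, two-sided, with Benjamini-Hochberg adjustment over all probe sets within each contrast. The code was tested on simulated data. The median standard error between 2 groups was 0.241 log2, and precision is bounded by the 3 arrays per group. In each gene the probe set with the highest mean leads. Named besides the members are the 5 genes most correlated with Ttpa, the top genes for other members and, per pathway list, those called (at most 4) or the 2 with smallest p. Kcnk1 and Rbp4, among these 5, and Myl1, among the genes most like Lpl, were singled out after their values were seen. So were Cdh5, Kdr, Adipoq, Fabp4, Cox8b, Cox7a1, Ucp1, Cidea, Dio2, Elovl3, Napsa, Hpx, Tat, Fgb and Ahsg, among the markers. Symbols and promoters came from the platform annotation and RefSeq GRCm38.p6. Members and lists were chosen with earlier results of these data known. The alternatives changed scaling, filter, pseudocount, model and arrays used.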

Additional observations from a re-analysis of the deposited data

How the results depend on the processing

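The 42 member results (6 leading probe sets in 7 contrasts) kept their direction and their side of the threshold, or for Ttpa with ventilation their size, in 952 of 1032 repeats over 25 alternatives, and 33 turned direction. The called probe sets after ventilation (genotype, 1 in the report) were 0 with trimmed-mean scaling only, median scaling only, no scaling, no filter or no intensity trend, 2 with array weights, and 0 to 3 when 1 array was left out. In the genotype average (2 in the report) they were 1 with trimmed-mean scaling, no filter or no trend, 0 with median or no scaling, 7 with array weights, and 1 to 3 with 1 array left out. At rest they were 2 with array weights or the actin ratio as a covariate. With ventilation in knockout they were 3 with array weights and 0 to 2 with 1 array left out, and averaged over genotypes 3 with array weights, 1 with the actin covariate and 0 to 2 with 1 array left out. The cause of these changes was not tested.

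Directions turned mainly where values were near 0. Unscaled intensities, which move the median of all probe sets by -0.77 for genotype after ventilation, -0.46 at rest, -0.61 on average, -0.28 for ventilation in knockout, -0.12 for ventilation averaged over genotypes and -0.32 for the interaction, gave Ttpa genotype differences of -0.58 after ventilation, -0.40 at rest and -0.49 on average, with an interaction of -0.18. They gave Lpl -0.23 at rest and -0.094 on average, Cd36 -0.73 for genotype after ventilation, and Abca1 -0.063 for ventilation in knockout with an interaction of -0.24. The actin covariate gave Lpl -0.041 and Abca1 -0.033 for ventilation in wild type, Ttpa an interaction of -0.041 and Cd36 a ventilation average of 0.014. Array weights gave Ttpa -0.11 at rest and Abca1 an interaction of -0.19. Trimmed-mean and median scaling gave Cd36 a ventilation average of 0.071 and 0.081. With 1 array left out, ventilation in wild type ranged from -0.11 to 0.00402 for Pltp, -0.0061 to 0.25 for Lpl and -0.054 to 0.33 for Abca1. Ttpa at rest ranged from -0.31 to 0.57 and its interaction from -0.23 to 0.65, Cd36 for genotype after ventilation from -0.12 to 0.24 and its ventilation average from -0.079 to 0.10, and the Abca1 interaction from -0.062 to 0.32.

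Groups share replicate numbers, so a replicate block was fitted: called probe sets became 0 for genotype after ventilation and 5 in the genotype average, where Abca1 passed (-0.59, adjusted p = 0.0387). The labels do not say whether the numbers pair the samples. Deviations of same-numbered arrays correlated at -0.18 to 0.38, with a median of 0.0587 against -0.0031 for arrays of different numbers. Of the 18 same-numbered pairs 6 were over 0.1, and 7 of 12 arrays correlated best with their own number. These values do not decide whether the samples were paired. With 3 arrays a group, signals near background, such as the dim Abca1 probe sets, carry little information.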
